A study of Danio rerio with 19 samples.

Results

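H3K9me3 peaks were examined at 6 loci of the zebrafish genome that hold 7 genes best known from muscle: atp2a1l, atp2a2a, ckmt2b, desma, myhz1.1 with myhz1.2, and ppp1r27b. The loci were chosen by their place in the study's tables of loci with age-related expression in the brain, and with peak lists of these data already known, so what follows describes them and tests nothing. A peak was taken when it lay inside a locus or within 10 kb of it, and peaks of different lists that overlapped by at least 1 bp were merged into a site. This gave 40 peaks of 242100 in the 6 lists, and 18 sites of 90523 merged regions in the genome. All sites are numbered within a locus by rising coordinate on GRCz10.

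H3K9me3 is histone H3 trimethylated on lysine 9. The mark is bound by heterochromatin protein HP1, covers repeats and silent chromatin, and can be placed over genes that a cell type does not use. Muscle contraction rests on myosin motors pulling on actin, on calcium pumps that return calcium to the sarcoplasmic reticulum, and on creatine kinases that restore ATP. Such genes are strongly used in muscle, and some of them, the calcium pump gene atp2a2a among them, also serve cells outside it.

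Brains were taken from wild-type zebrafish at ages of 4, 12 and 20 months (4 M, 12 M and 20 M). The fish were kept under equal light and dark phases for 1 week before collection. At each age they were collected at zeitgeber time 16 (ZT16), which lies in the dark phase, and at zeitgeber time 4 (ZT4), which lies in the light phase. Each of these 6 groups has 3 ChIP libraries made with an antibody against H3K9me3, 18 in all, and 1 further library was made with an antibody against GFP. The animals carried no treatment or transgene named in the labels, and the number of brains behind a library is not given in the sources used here.

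Each group is represented by 1 list of peaks called on its 3 libraries together. A list gives the position and a score of each peak but no value for a single library, so no replicate spread, error or test between groups can be given. The depth behind a peak is unknown, and where a list has no peak at a site, the mark may still be present below the threshold of the calls. The 4 M lists hold 55874 peaks for ZT16 and 70317 for ZT4, the 12 M lists 8755 for ZT16 and 29 for ZT4, and the 20 M lists 87948 for ZT16 and 19177 for ZT4. A longer list can show more sites at any locus, so the comparisons are also given with lists of equal size. Because scores are not comparable between lists, each is given with its percentile, the share of peaks of the same list that score lower (peaks with an equal score counted at the middle of their range). A percentile also depends on how many weak peaks its list holds, so it places a peak in its own list and is not a measure of the amount of the mark.

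At the 6 loci, the 4 M lists held 9 peaks for ZT16 and 11 for ZT4, the 12 M lists 0 for either time, and the 20 M lists 18 for ZT16 and 2 for ZT4. Peaks were thus listed at 5 of the 6 loci in both 4 M lists, at none of them in either 12 M list, at all 6 at 20 M ZT16, and at atp2a2a and desma alone at 20 M ZT4. Every one of the 18 sites was in the 20 M ZT16 list (Wilson 95% interval 82.4 to 100%), against 96.5% of all merged regions. The sites were themselves drawn from the lists, and 7 of the 18 were in the 20 M ZT16 list alone. The shares over all regions have the same limit. The other lists held 50.0% of the sites at 4 M ZT16 (29.0 to 71.0%) against 61.5% of all regions, 61.1% at 4 M ZT4 (38.6 to 79.7%) against 77.4%, and 11.1% at 20 M ZT4 (3.10 to 32.8%) against 21.0%. At 12 M, 0 of 18 sites were listed at either time (upper bound 17.6%), against 9.45% of all regions at ZT16 and 0.0298% at ZT4. These intervals, here and later, cover counting error only. Each interval includes the share over all regions.

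**Figure D1:**
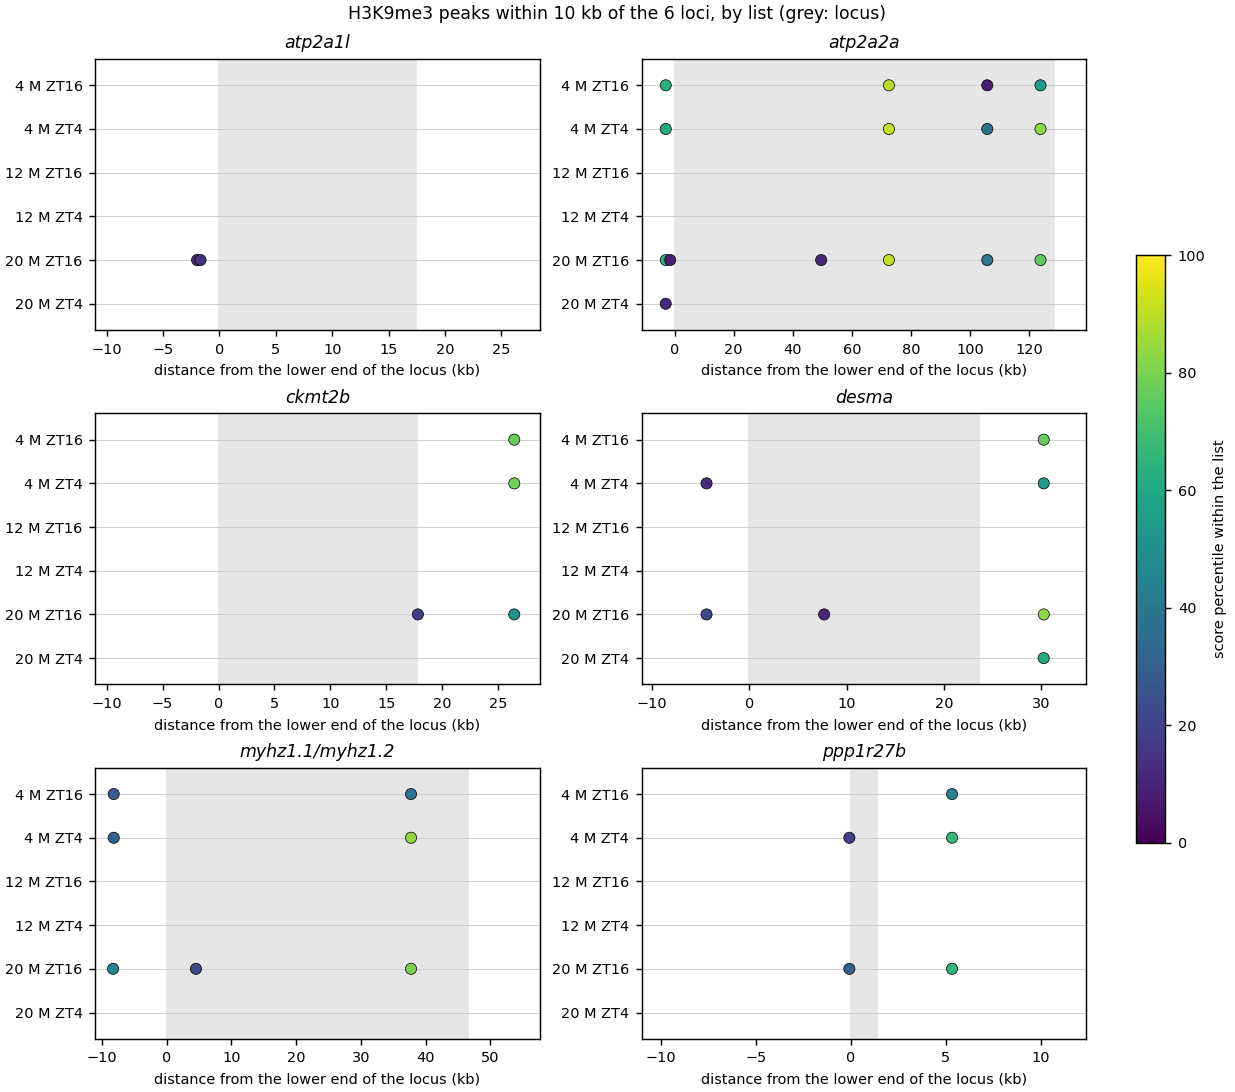
Positions of the 40 H3K9me3 peaks at the 6 loci, with 1 panel per locus. The horizontal axis is the distance in kb from the lower end of the locus (grey: the locus, white: its flanks), each line is a peak list, and colour is the score percentile within that list. The 12 M lines are empty at every locus, and the 20 M ZT16 line holds a peak at all 18 sites.

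The peaks were short. Their lengths ran between 40 and 236 bp with a median of 65.0 bp, and 38 of 40 were under 100 bp. The shortest, at 40 bp, were below the 50 bp of a read. The average sheared fragment stated in the paper was longer than any of them. A length is therefore that of a call and not of a marked stretch. Short peaks were not particular to these loci. Among the lists that held them, the whole-list median length was lowest for 4 M ZT16, with 70.0 bp. It was highest for 20 M ZT4, with 76.0 bp. The paper describes many peaks near protein-coding genes as about as long as a nucleosome, which is longer than most of these. Of the 18 sites, 7 lay inside a locus as the study's transcript models bound it and 11 lay in the flanks, 6 of these within 3 kb of a locus. Whether a site lies in an exon, an intron or a UTR was not analysed here, because no GRCz10 gene models were used, and the strand of the genes was not used either. Positions are therefore given as before the lower end or after the upper end of a locus.

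The myhz1.1 and myhz1.2 genes encode fast-muscle myosin heavy chains, the motor proteins of the thick filament. They are tandem copies of high similarity and share 1 locus of 46.6 kb on chromosome 5 (31662350 to 31708978), so reads and peaks cannot be assigned to a single copy, and how reads matching several copies were handled is not given in the sources used here. Site 3 lay inside the locus, 37.7 kb from its lower end, at 31700048 to 31700128. It had percentiles of 80.2 at 20 M ZT16 (score 275, 78 bp), 37.2 at 4 M ZT16 (score 66, 72 bp) and 83.9 at 4 M ZT4 (score 163, 80 bp). The site thus ranked high in its list at 20 M ZT16 and at 4 M ZT4 and lower at 4 M ZT16, and it was not called at 20 M ZT4. Site 1 lay 8.2 kb before the locus at 31654099 to 31654153, with percentiles of 45.6 at 20 M ZT16 (score 174), 28.4 at 4 M ZT16 (score 60) and 31.5 at 4 M ZT4 (score 89). This site was also 2334 bp from an unannotated transcript locus of the study's tables, which lies 10.6 kb from the myosin genes. Site 2, inside the locus at 31666833 to 31666874, was listed only at 20 M ZT16, at 42 bp and a percentile of 21.1 (score 80).

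The locus of myhz1.1 and myhz1.2 belongs to a cluster of myosin genes. In the study's tables, myhc4 lay 28.6 kb and myhz2 44.9 kb away, both myosin heavy chain genes, and a locus shared by dab2 and hspb15 lay 6.2 kb away. In order of the lists 4 M ZT16, 4 M ZT4, 12 M ZT16, 12 M ZT4, 20 M ZT16 and 20 M ZT4, myhc4 had 2, 2, 0, 0, 2 and 0 peaks within 10 kb. The same counts at myhz2 were 1, 1, 0, 0, 1 and 0. Neither gene had a peak at 12 M or at 20 M ZT4, which was also the case for myhz1.1 and myhz1.2. Most annotated loci of the tables lacked a peak in these lists too. Of the 352 other than the 6, 39.8% had one within 10 kb in the 20 M ZT4 list. The share was 19.6% for the 12 M ZT16 list, and no such locus had a 12 M ZT4 peak. The windows of myhc4 and myhz2 overlap, so their counts are not independent.

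The atp2a2a gene encodes a calcium pump of the SERCA2 type, which in mammals serves the heart, slow muscle and, in a widely used isoform, most other cells. Its locus in the study's tables was the longest of the 6, 128.3 kb on chromosome 8 (11604364 to 11732631), and also covers ift81, a gene of intraflagellar transport, so its sites cannot be assigned to either gene. It held 6 sites, 4 of them inside the locus, and 15 of the 40 peaks. Site 4, 72.5 kb from the lower end at 11676844 to 11676932, had the highest percentile of the 18 sites in each of its lists, 90.8 at 20 M ZT16 (score 323, 87 bp), 89.3 at 4 M ZT16 (score 116, 79 bp) and 91.3 at 4 M ZT4 (score 187, 89 bp). It was not among the peaks called at 20 M ZT4. The peak that was called there was site 1, 2.9 kb before the locus at 11601378 to 11601464, a site of the middle range in the longer lists.

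At site 1 of atp2a2a the percentile was 63.4 at 20 M ZT16 (score 225, 82 bp), 11.9 at 20 M ZT4 (score 22, 50 bp), 63.8 at 4 M ZT16 (score 85, 78 bp) and 61.7 at 4 M ZT4 (score 127, 84 bp). The 20 M ZT4 peak was thus the shortest of the 4 and ranked low in its list, while the other 3 lay close together. Site 5, 105.8 kb into the locus at 11710199 to 11710255, had percentiles of 38.7 at 20 M ZT16, 8.2 at 4 M ZT16 and 39.3 at 4 M ZT4. Site 6, 123.8 kb into the locus at 11728179 to 11728249, had percentiles of 75.6 at 20 M ZT16, 56 at 4 M ZT16 and 83 at 4 M ZT4. Both sites lay inside the locus and were not called at 20 M ZT4. Site 2 (11602823 to 11602878, 56 bp, percentile 8.4) and site 3 (11654007 to 11654046, 40 bp, percentile 12.1) were listed only at 20 M ZT16.

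The atp2a1l gene is named for its likeness to atp2a1, which encodes SERCA1, the calcium pump of fast muscle in mammals. Its locus spans 17.4 kb on chromosome 12 (13206013 to 13223430) and was the only one of the 6 without a peak in either 4 M list. Both of its sites were listed only at 20 M ZT16 and lay before the locus. Site 1, at 13203897 to 13204132, was the longest peak of the 40 at 236 bp and had a percentile of 12.1 (score 28). Site 2, at 13204298 to 13204339, was 42 bp long with a percentile of 15.1 (score 45). At 4 M the nearest peak was 38.1 kb away at ZT16 and 35.1 kb away at ZT4. The 0 peaks in this window of 37.4 kb allow up to 98.6 peaks per Mb in each 4 M list (upper bound of the exact Poisson 95% interval), so the empty window does not separate atp2a1l from its surroundings, which held 30 peaks per Mb at 4 M ZT16 and 41.0 per Mb at 4 M ZT4.

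The ckmt2b gene encodes a sarcomeric mitochondrial creatine kinase, which passes the phosphate of mitochondrial ATP to creatine. Its locus spans 17.7 kb on chromosome 5 (50944691 to 50962370) and had no peak inside it. Site 1, at 50962458 to 50962497 and 88 bp after the upper end, was listed only at 20 M ZT16, at 40 bp and a percentile of 18.4 (score 65). Site 2, 8.7 kb after the locus at 50971107 to 50971172, had percentiles of 50.4 at 20 M ZT16 (score 188, 65 bp), 77.2 at 4 M ZT16 (score 97, 63 bp) and 78.9 at 4 M ZT4 (score 153, 65 bp). The site was not called at 20 M ZT4, where the nearest peak was 37.6 kb from ckmt2b.

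The desma gene encodes desmin, the intermediate filament protein that ties myofibrils together. Its locus spans 23.6 kb on chromosome 9 (7537472 to 7561074) and had 3 sites with 3 different sets of lists. Site 3, 6.6 kb after the locus at 7567678 to 7567767, was listed in 4 lists, with percentiles of 83.2 at 20 M ZT16 (score 286, 87 bp), 61.7 at 20 M ZT4 (score 38, 62 bp), 77.2 at 4 M ZT16 (score 97, 80 bp) and 54.7 at 4 M ZT4 (score 118, 88 bp). It was the better ranked of the 2 peaks that the 20 M ZT4 list held at these loci. Site 1, 4.3 kb before the locus at 7533090 to 7533139, had percentiles of 21.5 at 20 M ZT16 and 12.4 at 4 M ZT4, and was 48 bp long in both lists. Site 2, the only one inside desma, at 7545081 to 7545276, was listed only at 20 M ZT16 as a peak of 196 bp with a percentile of 11.1 (score 25). With site 1 of atp2a1l it made up the 2 peaks of 150 bp or more, and both had low scores in their list.

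The ppp1r27b gene encodes a regulatory subunit of protein phosphatase 1 and is not itself part of the contractile apparatus. Its locus is the shortest, 1.4 kb on chromosome 6 (21726493 to 21727895). Site 1, at 21726365 to 21726411 and 82 bp before the lower end, had percentiles of 30 at 20 M ZT16 (score 120, 44 bp) and 18.1 at 4 M ZT4 (score 70, 47 bp). Site 2, 3.9 kb after the locus at 21731809 to 21731879, had percentiles of 64.9 at 20 M ZT16 (score 229, 68 bp), 44.5 at 4 M ZT16 (score 71, 64 bp) and 66.8 at 4 M ZT4 (score 134, 69 bp). In both lists that held both ppp1r27b sites, site 2 ranked above site 1.

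**Figure D2:**
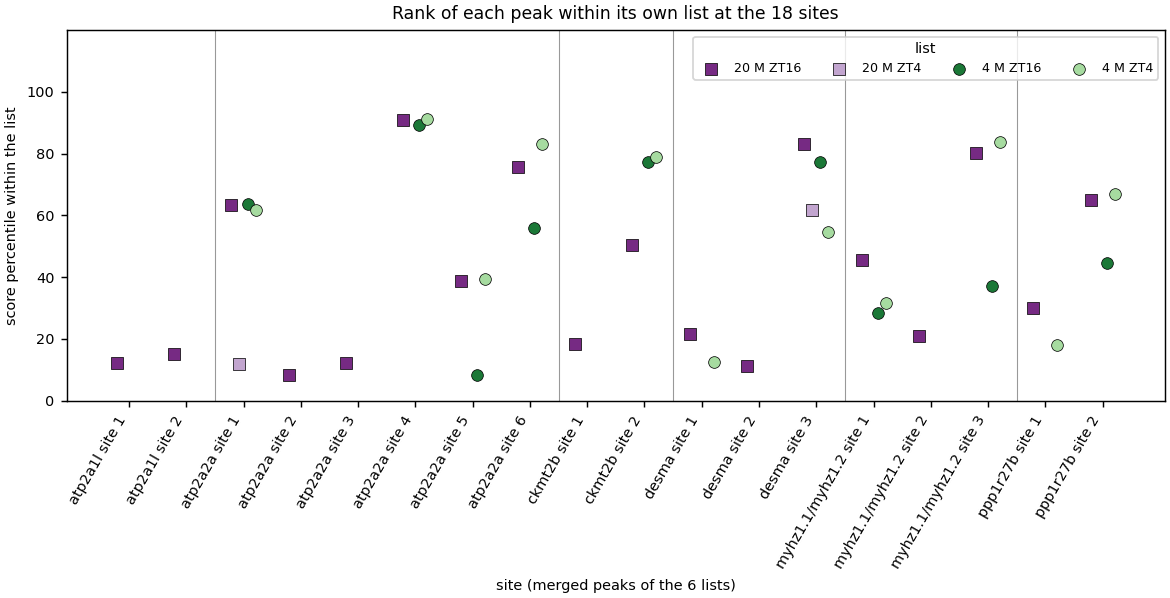
Score percentile of each peak within its own list (vertical axis) at the 18 sites (horizontal axis), by list. Sites with only a 20 M ZT16 square lie between 8.4 and 21.1, and the highest points are those of atp2a2a site 4.

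The sites fell into 4 sets of lists. The 20 M ZT16 list alone held 7 of the 18 sites, or 38.9% (20.3 to 61.4%), against 21.2% of the 335 regions in the surroundings and 21.8% of all regions. These were both atp2a1l sites, sites 2 and 3 of atp2a2a, and 1 site each of ckmt2b, desma and the myhz locus. Another 7 sites, 38.9%, were in both 4 M lists and at 20 M ZT16, against 41.2% of the surroundings and 40% of all regions. The 2 sites in 4 lists, site 1 of atp2a2a and site 3 of desma, made up 11.1% of the sites against 13.4% of the surroundings and 11.5% of all regions. The 2 sites at 4 M ZT4 and 20 M ZT16 alone, site 1 of desma and site 1 of ppp1r27b, also made up 11.1% of the sites, against 16.1% of the surroundings and 13.4% of all regions. Each interval includes the share over the genome.

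Sites found in fewer lists ranked lower in the 20 M ZT16 list, at these loci as over the genome. The percentiles at 20 M ZT16 lay between 8.4 and 21.1 (median 12.1) at the 7 sites of 1 list, at 21.5 and 30 at the 2 sites of 2 lists, and between 38.7 and 90.8 (median 64.9) at the 9 sites of 3 or 4 lists. The medians over all regions of these kinds were 12.4, 31.7 and 64.2. Peaks of different lists at a site nearly coincided: at the 9 sites of 3 or 4 lists, starts differed by 5 bp in the median and 32 bp at most, and ends by 3 bp in the median and 22 bp at most. The largest shift of a start was at site 1 of atp2a2a and the largest shift of an end at site 3 of desma, where the short 20 M ZT4 peak lay within the longer ones.

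The comparison of ages asks whether the mark at these loci changed with age. At ZT16, 9 of the 18 sites (50.0%) were listed at 20 M and not at 4 M, against 35.4% of all regions. Further, 0 sites were listed at 4 M and not at 20 M (0.390% of all regions), and 9 (50.0%) in both lists (61.1% of all regions). The number of peaks, 18 at 20 M ZT16 and 9 at 4 M ZT16, was higher at 20 M at 6 of 6 loci. It was also higher at 20 M in the surroundings of 6 of 6 loci. At ZT4 the order was the opposite. There, 0 sites were listed at 20 M and not at 4 M (0.252% of all regions). At 4 M and not at 20 M there were 9 (50.0%, against 56.7% of all regions), and in both lists 2 (11.1%, against 20.7%). The number of peaks, 2 at 20 M ZT4 and 11 at 4 M ZT4, was lower at 20 M at 5 loci and equal, at 0, at atp2a1l. In the surroundings the number was lower at 20 M at 6 of 6 loci. The log2 ratio of peaks at 20 M to those at 4 M was 1.0 at ZT16 and -2.46 at ZT4. In the surroundings of the same loci it was 0.66 at ZT16 and -1.96 at ZT4, and over all peaks 0.65 at ZT16 and -1.87 at ZT4, so the loci moved in the direction of the whole lists.

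The comparison of times asks whether the mark differed between night and day. At 4 M, 0 sites were listed at ZT16 and not at ZT4 (0.489% of all regions), and 9 (50.0%) in both (61.0% of all regions). At ZT4 and not at ZT16 there were 2 (11.1%, against 16.5% of all regions). Those 2 were site 1 of desma and site 1 of ppp1r27b. At 12 M no site was listed at either time, while over the genome 9.42% of regions were listed at ZT16 and not at ZT4 and 0.00% at ZT4 and not at ZT16. At 20 M, 16 sites (88.9%) were listed at ZT16 and not at ZT4, against 75.7% of all regions. At ZT4 and not at ZT16 there were 0 (0.202% of all regions), and in both 2 (11.1%, against 20.8%). The log2 ratio of peaks at ZT16 to those at ZT4 was 3.17 at 20 M and -0.29 at 4 M. In the surroundings it was 2.3 at 20 M and -0.32 at 4 M, and over all peaks 2.2 at 20 M and -0.33 at 4 M. The difference between the ages was not tested.

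With lists of equal size, reached by keeping the highest scores of the longer list, the counts at the loci became equal in 2 of the 4 comparisons. At ZT16, with 55874 peaks kept in each list, the loci held 9 peaks at 20 M and 9 at 4 M, and these were the same 9 sites. At 4 M, with 55874 peaks kept, they held 9 at ZT16 and 9 at ZT4, again at the same sites. In the other comparisons they stayed unequal. At ZT4, with 19177 peaks kept, they held 2 at 20 M (site 1 of atp2a2a and site 3 of desma) and 4 at 4 M (sites 4 and 6 of atp2a2a, site 2 of ckmt2b and site 3 of the myhz locus), and shared none. At 20 M, with 19177 peaks kept, they held 3 at ZT16 (site 4 of atp2a2a, site 3 of desma and site 3 of the myhz locus) and 2 at ZT4, and shared site 3 of desma. Of the sites kept at 20 M ZT16 or 4 M ZT4 in these last comparisons, site 3 of desma alone was also called at 20 M ZT4. In the ZT4 comparison the lowest score kept was 143 at 4 M and 10 at 20 M. Both 20 M ZT4 sites were in the full 4 M ZT4 list, site 1 of atp2a2a with a score of 127 and site 3 of desma with 118. The shares over all regions at these cuts are not given here, so the counts cannot be called particular to these loci.

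The 12 M lists held few peaks in the surroundings of the loci, 3.67 per Mb at ZT16 and 0 at ZT4. The nearest 12 M ZT16 peak was 24.6 kb from the myhz locus, where it was 232 bp long with a percentile of 6.9. It was 96.5 kb from atp2a2a, 147.7 kb from ckmt2b, 163.6 kb from desma, 277.8 kb from ppp1r27b and 283.6 kb from atp2a1l. At 12 M ZT4 no peak was listed on the chromosomes of atp2a2a, desma and ppp1r27b, and the nearest to the other loci was 9080.0 kb from ckmt2b. The nearest 20 M ZT4 peak was closer at every locus, 12.8 kb from ppp1r27b, 13.6 kb from the myhz locus, 37.6 kb from ckmt2b and 84.5 kb from atp2a1l, beside the sites within the flanks of atp2a2a and desma.

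The density of peaks was set against that in 500 kb on each side beyond the flanks. At 4 M ZT16 the loci held 25.4 peaks per Mb (exact Poisson 95% interval 11.6 to 48.1) and their surroundings 34.8. At 4 M ZT4 the loci held 31.0 (15.5 to 55.4) and the surroundings 43.3. At 12 M ZT16 the 0 peaks in 355.0 kb allow up to 10.4 per Mb (upper bound of the same interval), against 3.67 in the surroundings, so a lower density at the loci could not have been detected. At 12 M ZT4 neither held a peak. At 20 M ZT16 the values were 50.7 (30.1 to 80.1) at the loci and 55.2 around them, and at 20 M ZT4 they were 5.63 (0.682 to 20.4) at the loci and 11.2 around them. Each interval included the density of the surroundings. The point values were lower at the loci in every list that held a peak in the surroundings. At 20 M ZT16 the order turned without the long atp2a2a locus, with 58.0 peaks per Mb at the other 5 loci (30 to 101) and 52.8 around them.

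**Figure D3:**
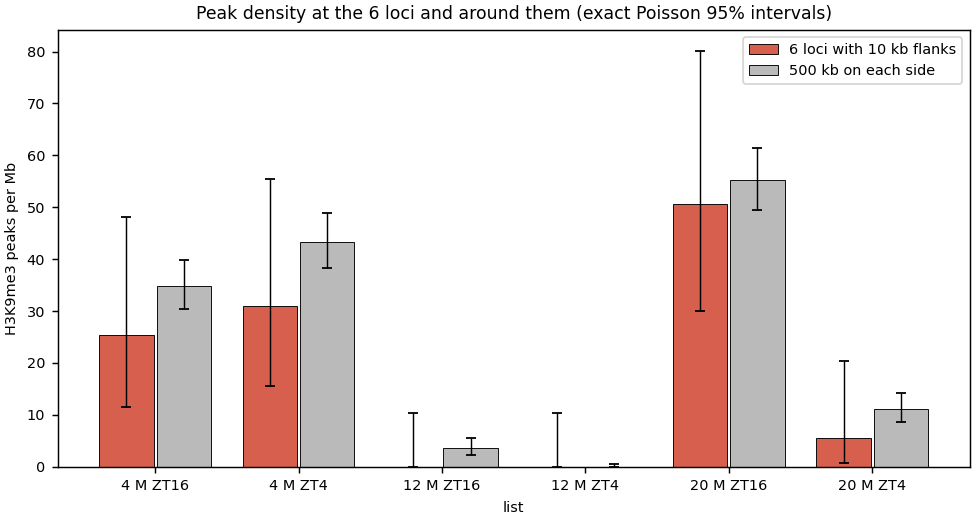
H3K9me3 peaks per Mb (vertical axis) at the 6 loci with their 10 kb flanks and in 500 kb on each side, by list. Bars are the density and whiskers the exact Poisson 95% interval; in every list the interval at the loci includes the density around them.

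Among single loci the densest was ppp1r27b, with 93.4 peaks per Mb at 20 M ZT16 (11.3 to 338) against 46.0 around it, and the same 93.4 at 4 M ZT4 against 38 around it. With 2 peaks behind each value, these intervals too include the surroundings. The locus of atp2a2a had the lowest density at 20 M ZT16, 40.5 peaks per Mb (14.9 to 88.1) against 67.0 around it. The myhz locus stood level with its surroundings at 20 M ZT16, with 45.0 peaks per Mb in both. Over all merged sites, the locus and flanks of ppp1r27b held 9.3 per 100 kb and those of atp2a2a 4.0.

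The limit of 10 kb set which sites were counted at some loci. The farthest sites counted were site 2 of ckmt2b at 8.7 kb and site 1 of the myhz locus at 8.2 kb. The nearest left out were at 12.8 kb from ppp1r27b and at 13.6 kb from the myhz locus, and both of those were in the same 4 lists, 20 M ZT4 among them. The next sites beyond the other loci were at 19.4 kb (ckmt2b), 21.4 kb (desma), 30.5 kb (atp2a2a) and 35.1 kb (atp2a1l).

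A wider list of 56 other muscle gene loci was counted in the same way. These and the other annotated loci came from the study's tables of both age-related and diurnal expression. In the 4 M lists, a peak lay within 10 kb of 73.2% of them for ZT16 (Wilson 95% interval 60.4 to 83%) and 80.4% for ZT4 (68.2 to 88.7%). In the 12 M lists this was so for 14.3% at ZT16 (7.42 to 25.7%) and 0 of 56 at ZT4 (up to 6.42%). With only the peaks that scored at least 30, the 12 M ZT16 share was 1.79%. In that list 5847 of 8755 peaks scored under 20. The share of the other annotated loci at that score is not given here, so the 1.79% has no background beside it. In the 20 M lists a peak of any score lay within 10 kb of 80.4% at ZT16 (68.2 to 88.7%) and 44.6% at ZT4 (32.4 to 57.6%). Over all 352 annotated loci of the tables other than the 6, the shares in the 4 M lists were 75.3% for ZT16 and 81.5% for ZT4. They were 19.6% for ZT16 and 0.00% for ZT4 in the 12 M lists, and 85.5% for ZT16 and 39.8% for ZT4 in the 20 M lists. These 352 include the 56. Over the 296 annotated loci outside the muscle list, the 4 M shares were 75.7% for ZT16 and 81.8% for ZT4. The 12 M shares were 20.6% for ZT16 and 0.0% for ZT4, and the 20 M shares 86.5% for ZT16 and 38.9% for ZT4. In every list, the interval of the wider muscle list included the share over these 296 loci. Of the 6 loci, 83.3% had a peak at both times at 4 M, and 100% at ZT16 and 33.3% at ZT4 in the 20 M lists. At 12 M this was so for 0 of 6 at either time (up to 39.0%), against the 19.6% of annotated loci at ZT16. With only 6 loci, the interval included the background share in each list. The median length was 17482 bp for the wider list and 17148 bp for all annotated loci, against 20642 bp for the 6. Neighbouring loci of a list can share a site.

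By role, the 20 M ZT16 list held a peak at 9 of 10 thick filament loci, 5 of 10 thin filament loci, 8 of 9 loci of the Z-disc and sarcomere scaffold, 10 of 11 of calcium handling and excitation, 9 of 10 of energy supply and 4 of 6 of assembly and turnover. In the same order of roles, the 20 M ZT4 list held a peak at 4, 5, 3, 6, 6 and 1 of them. The shares over all annotated loci, 85.5% at 20 M ZT16 and 39.8% at 20 M ZT4, stand beside these small counts. No role was tested against them. A longer locus can hold more peaks, and the median lengths in the same order were 11712, 8565.5, 39615, 20217, 31450.5 and 16772.5 bp. Peaks per Mb at 20 M ZT16 were 44.4, 49.1, 65.4, 49.6, 58.2 and 50.7, against 61.8 over the 352 annotated loci other than the 6.

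Of single muscle loci, acta1b, a skeletal muscle actin gene, had the most sites for its length, 11.82 per 100 kb of locus and flanks, from 3 sites. It was followed by casq1a, a gene of calsequestrin, the calcium store of the sarcoplasmic reticulum, with 9.95 per 100 kb from 4 sites. These are the top of a ranking of 56 loci, from few sites each, and were not tested. At 20 M ZT16 the 56 loci together held 54.1 peaks per Mb, against 61.8 over the 352 annotated loci other than the 6. Those 352 include the 56, and the 296 outside the muscle list held 63.3. By number of sites the leading loci were igfn1.1, an immunoglobulin and fibronectin domain protein of the sarcomere scaffold, with 22, and scn4ab, a sodium channel of muscle, with 7. Next, with 6 sites each, were bin1b, a membrane-shaping protein, ldb3a, a protein of the Z-disc, and tnnc2, the calcium-binding troponin of fast muscle. The igfn1.1 locus alone had 16 peaks for ZT16 and 18 for ZT4 in the 4 M lists, 8 for ZT16 and 0 for ZT4 in the 12 M lists, and 22 for ZT16 and 10 for ZT4 in the 20 M lists. It held 8 of the 20 muscle-list peaks at 12 M ZT16, and without it the density of that list was 4.61 peaks per Mb, against 7.07 with it. Over the 352 annotated loci other than the 6, the density at 12 M ZT16 was 5.89 peaks per Mb, which lies between these values. The 205324 bp of igfn1.1 make it longer than any of the 6 loci. For its length it also ranked next after casq1a, with 9.76 sites per 100 kb of locus and flanks.

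**Figure D4:**
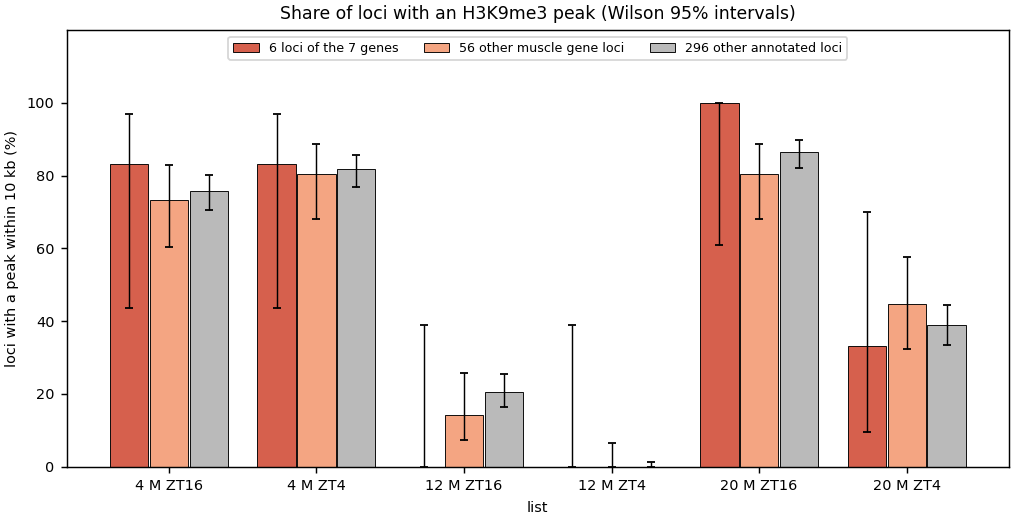
Share of loci with an H3K9me3 peak within 10 kb (vertical axis, %) by list, for the 6 loci, 56 other muscle gene loci and 296 other annotated loci of the study's tables. Bars are shares and whiskers Wilson 95% intervals; in each list the interval of the 6 loci includes the shares of both other sets.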

How the data were processed

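Chromatin from zebrafish brain was immunoprecipitated with an antibody against H3K9me3 in 3 libraries for each of 6 groups. The authors mapped 50-bp single-end reads to GRCz10 with Bowtie2 and called peaks on each triplicate with MACS2 (version 2.2.1 per the submitters' processing notes) at a stated FDR of 0.01. The control library of the calls is not given in the sources used here. The deposited unit is a score per peak, a whole number on a scale the authors' lists do not name. Lists were BED files of 6 columns. The lowest score was 10 in 5 lists, and 5847 of the 8755 peaks at 12 M ZT16 scored under 20. If the scale is that of MACS2's own lists, a score of 20 is the stated FDR, and most of the 12 M ZT16 list lies under it. No peak at the 6 loci scored under 20. The study states a sequencing depth for its ChIP libraries, but the depth reached by each library is unknown. Value columns left unused numbered 0.

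Positions are printed counted from 1. Loci came from the study's tables of age-related and diurnal expression, whose positions alone were used. The members and the muscle list were chosen with earlier results of these data known. Genes named are the 7 members, the 3 other muscle loci with the most sites per length, those with the most sites (ties for the last place included), and the neighbours within 500 kb on the list. A peak counted at a site on an overlap of 1 bp. Wilson and exact Poisson 95% intervals cover counting error only. Scripts ran in Python 3.11.15 with pandas 2.3.3, numpy 2.4.6, scipy 1.17.1, and matplotlib 3.10.9 for plots. The overlap code found 1500 of 1500 planted overlaps in 5000 simulated intervals, and bedtools 2.31.1 gave the same 90523 regions. Alternatives were a score of at least 30, no flank or 3 kb, merging within 1 kb, 50% reciprocal overlap, lists of equal size, and surroundings of 250 kb. Leaving out the atp2a2a locus or igfn1.1 was chosen after seeing the data.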

Additional observations from a re-analysis of the deposited data

Results flagged for a closer look

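The number of peaks at the 6 loci moved in opposite directions with age at the 2 times. The log2 ratio of 20 M to 4 M was 1.0 at ZT16 (18 against 9 peaks) and -2.46 at ZT4 (2 against 11 peaks). With time of day, the ZT16 list stood to the ZT4 list at a log2 ratio of 3.17 at 20 M (18 against 2 peaks) and -0.29 at 4 M (9 against 11 peaks). Each group is 1 list, and neither difference was tested. The whole lists differ in the same directions.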

How the results depend on the processing

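Of 155 values of 31 results under alternatives, 116 stayed within 1.5 times the count or within the interval of the value, and 39 moved. The 116 are not independent checks. The 12 M results of 0 could not fall further, and peaks and sites by list gave equal counts that were entered separately. A density ratio counted as unmoved anywhere in its interval, which ran from 0.33 to 1.38 at 4 M ZT16. No count of peaks reversed the order of its lists, but some lists tied. Without flanks, both 4 M lists held 4 peaks, and the 20 M ZT4 list held 0, as did both 12 M lists. With lists of equal size, 20 M ZT16 and 4 M ZT16 tied at 9 peaks, and so did 4 M ZT16 and 4 M ZT4. The density ratio of loci to surroundings at 20 M ZT16, 0.919, became 1.1 without the atp2a2a locus and 1 with surroundings of 250 kb. Merging peaks within 1 kb, 50% reciprocal overlap and leaving out igfn1.1 moved none of the results they were tried on.

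A score of at least 30 left 1 peak and 1 site at 20 M ZT4, 5 sites at 20 M ZT16 and not at 4 M ZT16, and 1.79% of the wider muscle loci with a peak at 12 M ZT16. Without flanks, the loci held 7 peaks and sites for ZT16 and 0 for ZT4 in the 20 M lists, and 4 for ZT16 and 4 for ZT4 in the 4 M lists. Sites in 1 list and not the other then numbered 4 at 4 M ZT4 against 20 M ZT4, 3 at 20 M ZT16 against 4 M ZT16, 0 at 4 M ZT4 against 4 M ZT16 and 7 at 20 M ZT16 against 20 M ZT4. The density ratio of loci to surroundings became 0.534 at 20 M ZT16 and 0 at 20 M ZT4. Wider muscle loci with a peak became 51.8% for both times in the 4 M lists, 7.14% in the 12 M ZT16 list, and 57.1% for ZT16 and 26.8% for ZT4 in the 20 M lists. With flanks of 3 kb, the loci held 1 peak and site at 20 M ZT4, and 5 for ZT16 and 6 for ZT4 in the 4 M lists, with 5 sites at 4 M ZT4 and not at 20 M ZT4 and 1 at 4 M ZT4 and not at 4 M ZT16. Wider muscle loci with a peak were then 64.3% at 4 M ZT4 and 67.9% at 20 M ZT16. The shares of the other annotated loci with no flank or 3 kb are not given here. These shares of the wider muscle loci therefore have no background beside them, and the shares given above for flanks of 10 kb are not one. A shorter flank covers less sequence and so holds fewer peaks. The 20 M ZT16 list then held 7 sites without flanks and 13 with 3 kb. Shares over all merged regions, unlike shares of loci, do not depend on the flank. They were 56.7% at 4 M ZT4 and not 20 M ZT4, and 35.4% at 20 M ZT16 and not 4 M ZT16. They were 16.5% at 4 M ZT4 and not 4 M ZT16, and 75.7% at 20 M ZT16 and not 20 M ZT4. The shares at the stricter score are not given here, so its count cannot be called particular to these loci.

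With lists of equal size, 2 sites were at 20 M ZT4 and not at 4 M ZT4, 4 were at 4 M ZT4 and not at 20 M ZT4, and 0 were at 20 M ZT16 and not at 4 M ZT16. Then 0 were at 4 M ZT4 and not at 4 M ZT16, 2 were at 20 M ZT16 and not at 20 M ZT4, and 1 was at 20 M ZT4 and not at 20 M ZT16. The shares over all regions with lists of equal size are not given here. The cause of the moves under equal size and the stricter score was not tested.

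No paired analysis was possible because each list pools the 3 libraries of a group. Leaving out a library was not possible for the same reason. Depth, enrichment and fish-to-fish spread cannot be told apart from age or time of day in these lists.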
